A study of Mus musculus with 9 samples.

Results

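Hair cells turn sound into nerve signals, and the genes that build and run them were followed here in the developing cochlea of mice with and without the transcription factor Prdm16. The set holds 36 named genes, of 54232 genes counted, chosen for their place in hair cell biology. It comprises 6 hair cell transcription factors, 4 unconventional myosins, 7 genes of the Usher proteins with their links and scaffolds, 5 genes of the mechanotransduction complex, 7 genes of the bundle's actin core and surface, and 7 genes of synapse and calcium handling. All 36 were matched from their Ensembl identifier to a mouse symbol. RNA of cochlear ducts was sequenced at E14.5 in 3 WT (Prdm16 +/+), 3 heterozygote (Prdm16 cGT/+) and 3 null (Prdm16 cGT/cGT) embryos, with the ducts of both ears of a single embryo in each library. The embryos came from matings of Prdm16 cGT/+ mice kept on the FVB/NJ background. The cGT allele is a gene trap carried in the germline, so every tissue of a null embryo lacks the intact gene, and the sex of the embryos was not used here. Libraries are named by genotype and number (WT 1 to Null 3), and the numbers do not tie embryos of different genotypes to each other.

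A hair cell carries on its upper surface a bundle of stereocilia, actin-filled protrusions arranged in rows of rising height. Deflection of the bundle pulls on tip links made of cadherin 23 and protocadherin 15 and opens the transduction channel, and the cell then releases glutamate at ribbon synapses. In the mouse cochlea hair cells arise from the prosensory domain under the control of Atoh1, beginning near the base of the duct around the age sampled here, so genes of the finished bundle and synapse are known to come on later than the transcription factors. Vestibular hair cells of the same inner ear differentiate earlier. Kölliker's organ is the neighbouring epithelium on the neural side, where Prdm16 is normally made.

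Total counts per library ranged from 24095322 to 30819118, and a count of 3, taken as the floor, equals 0.0973 to 0.125 CPM (counts scaled to a common library size). Library sizes were scaled by the TMM method, and the floor covers counting error only. Prdm16 measured 184 to 225 CPM in WT, 123 to 151 CPM in heterozygote and 19.1 to 27.4 CPM in null libraries, in the order of the labelled genotypes. The summed level of 9 prosensory markers was 1051.0 to 1154.0 CPM in WT, 1264.3 to 1304.0 CPM in heterozygotes and 1231.8 to 1596.5 CPM in null embryos, with all 9 over the floor in every library. The summed level of 8 Kölliker's organ markers was 3562.4 to 4533.8 CPM in WT, 3285.6 to 4117.6 CPM in heterozygotes and 1863.4 to 2069.5 CPM in null embryos. From these same libraries the paper already reports lower Efhd1, Itga8, Gsn, Clic6, Fgf10, Tecta and Rgcc, which are in the Kölliker's organ list. It also reports higher Fgf20, Lfng, Jag1, Cdkn1b and Prox1, which are in the prosensory list. The direction of both sums was therefore known in advance, and they are no separate support. Tecta alone averaged 2883.0 CPM of the 4029.5 CPM mean Kölliker's organ sum in WT. In whole ducts, fewer cells of a type and less RNA per cell cannot be told apart, and the part of these shifts in the results below was not tested.

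Before any comparison of genotypes, 2 libraries stood apart in hair cell RNA. WT 3 and Null 3 each held the highest level of their genotype for 24 of the 34 members that reached 10 counts in a library (70.6%), against 9.75% of the 19892 genes that did so. For 9 of the 34 members (26.5%, against 0.266% of all these genes) WT 3 and Null 3 were each at least 3-fold above both other libraries of their genotype, with the mean floor of those 2 libraries standing in where both lay below it. These 9 were Lhx3, Barhl1, Myo15, Lhfpl5, Strc, Ptprq, Loxhd1, Xirp2 and Otof, and none of the 3 heterozygote libraries held them at such a level. Their summed level was 4.04, 2.79 and 51.7 CPM in WT 1, 2 and 3, 5.82, 3.32 and 3.26 CPM in Het 1, 2 and 3, and 2.85, 3.52 and 80.1 CPM in Null 1, 2 and 3. The genotypes overlapped fully in this sum, and the high values belonged to a WT and a null library alike. The number of members over the floor followed the same libraries, with 34 in WT 3 and 35 in Null 3 and 25 to 29 in the other 7. WT 3 and Null 3 were singled out after the member values were seen. Some members, such as Strc and Xirp2, reached 10 counts in these libraries alone. The shares of members given here are therefore descriptions, and their distance from the shares of all genes was not tested. Results that rest on WT 3 and Null 3 are given with and without them.

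**Figure D1:**
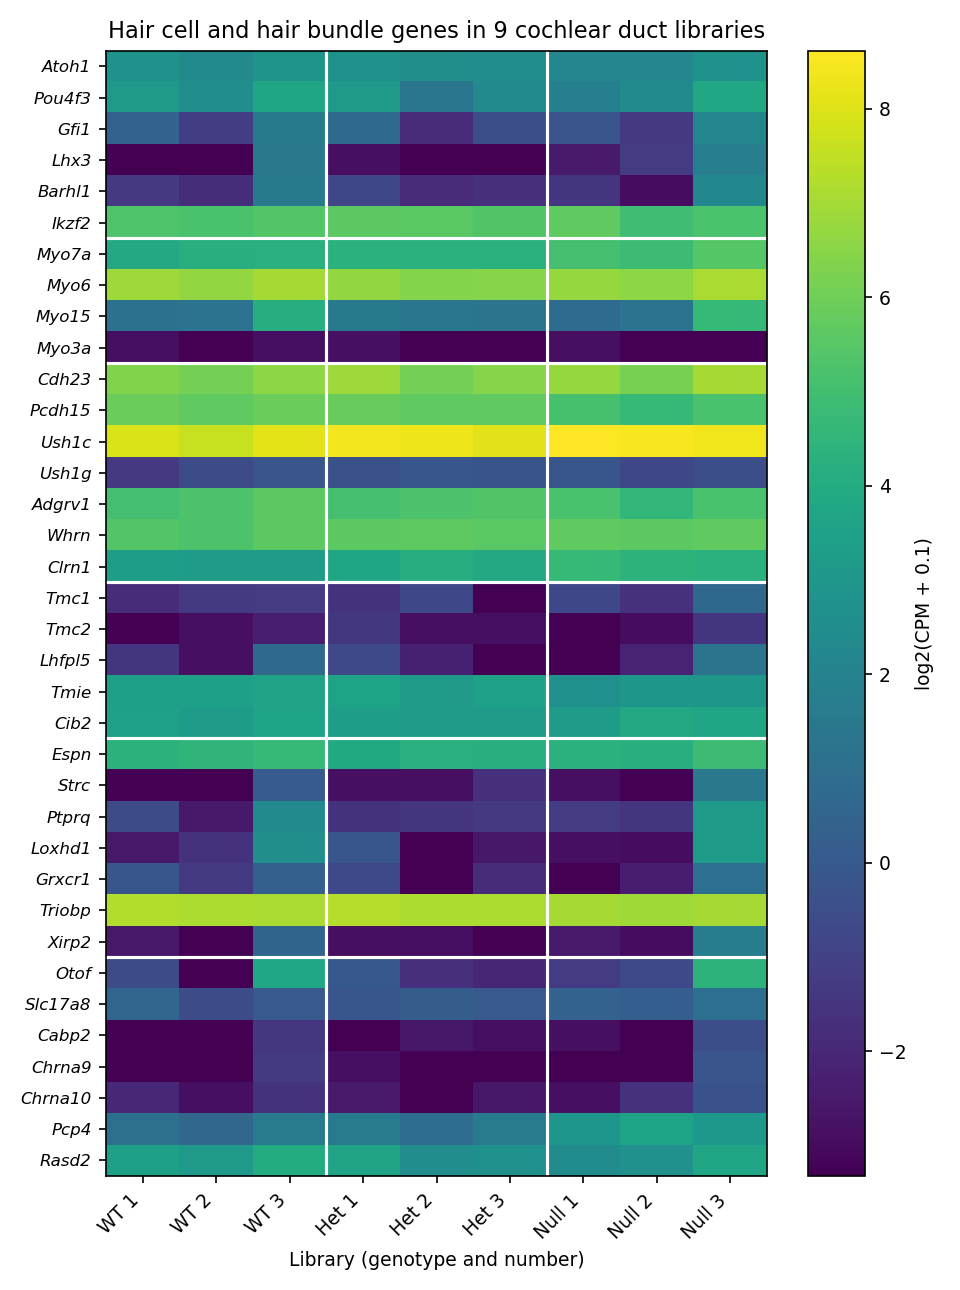
Level of each of the 36 members (rows, grouped by role between white lines) in each of the 9 libraries (columns), as log2(CPM + 0.1). WT 3 and Null 3 are brighter than their neighbours in rows such as Lhx3, Loxhd1, Xirp2 and Otof, while rows such as Ush1c, Triobp and Myo6 are bright in every library.

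Other cell types were set beside this pattern. Of 12 vestibular markers, Otop1 and Calb2 shared it. Otop1 measured 1.36 CPM in WT 3 and 0.964 CPM in Null 3 and at most 0.0413 CPM elsewhere, and Calb2 0.984 and 1.42 CPM against at most 0.235 CPM. Ocm, a vestibular marker of the list, lay at 0 in 8 libraries and at 0.0361 CPM in Het 2, and the summed vestibular list was 312 to 365 CPM in WT and 343 to 429 CPM in null embryos, with WT 3 the lowest WT library and Null 3 the highest null library. Sparcl1 made up most of this sum, at 223 CPM in WT 3 and 300 CPM in Null 3, so its ranks do not describe the list. Zpld1 read 10.9, 19.8 and 4 CPM in WT 1, 2 and 3. Of the 11 vestibular markers that reached 10 counts, WT 3 and Null 3 were each the highest of their genotype for 3 (27.3%). Of 12 neuron markers, the neurofilament genes Nefl and Nefm shared the pattern (6.58 CPM of Nefm in WT 3 and 16.6 CPM in Null 3, at most 2.42 CPM elsewhere), whereas Isl1, the most abundant of the list and also expressed in the prosensory domain, was 232 to 268 CPM in WT and lowest of all libraries in Null 3 at 175 CPM, and Tubb3 was 7.46 to 11.9 CPM throughout. The summed neuron list was highest of WT in WT 3 (300 CPM) and lowest of all libraries in Null 3 (217 CPM). Isl1 made up most of this sum, at 268 CPM in WT 3, so the ranks of the sum do not describe the other markers. Of the 10 neuron markers that reached 10 counts, WT 3 and Null 3 were each the highest of their genotype for 4 (40%). The neuroblast genes Neurod1 and Neurog1 were at or near 0 in all 9 libraries. Mesenchyme did not follow the pattern, since the summed level of 8 markers was 521, 985 and 97.8 CPM in WT 1, 2 and 3, 39.9 to 86.2 CPM in heterozygotes and 55.9, 29.6 and 1303.0 CPM in Null 1, 2 and 3. No muscle, immune, prosensory or Kölliker's organ marker of the lists was 3-fold higher in both WT 3 and Null 3. The part of any of these cells in the hair cell values was not tested.

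To ask how loss of Prdm16 related to hair cell genes, null and WT libraries were compared with edgeR's quasi-likelihood test and Benjamini-Hochberg adjustment over all 17168 genes tested. Calls needed an adjusted p under 0.05 together with a log2 change of more than 0.5 in either direction. The motor gene Myo7a, the Usher gene Clrn1 and the calmodulin regulator Pcp4 were higher in null cochlear ducts by 2.12-, 2.3- and 4.34-fold in mean CPM, and the tip link gene Pcdh15 was lower, at 0.569 of the WT level. Thus 3 of the 24 members that passed the filter on low counts were called higher (12.5%, against 0.92% of all genes tested) and 1 was called lower (4.17%, against 0.786%). These counts depended on the libraries used, with 0 called higher without WT 2, 1 without WT 1 and 1 with a block for the replicate number, and 0 called lower without WT 1, WT 2, WT 3 or Null 1. The paper already lists Myo7a and Clrn1 as higher in null embryos from the same libraries. The members were chosen with such results known, so the shares called are descriptions. At an unadjusted p under 0.05 the counts were 4 higher and 3 lower of the 24, beside 2101 of all 17168 genes in both directions. DESeq2 called 4 members higher (Clrn1, Myo7a, Pcp4 and Ush1c) and 2 lower (Pcdh15 and Tmie), with backgrounds of 1.76% and 1.51%. The median log2 fold change of the 24 was 0.18, beside 0.01 over all genes tested, and it was -0.22 without Null 3, 0.58 without Null 2 and 0.03 with the replicate block. The other 12 members did not pass the filter and were not tested. They were Lhx3, Barhl1, Myo3a, Tmc1, Tmc2, Lhfpl5, Strc, Loxhd1, Xirp2, Cabp2, Chrna9 and Chrna10, and 6 of them are among the 9 that stood high in WT 3 and Null 3. For a single gene in 3 against 3 libraries, the smallest two-sided p of an exact permutation test is 0.1, and for that reason the fit across genes was used.

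**Figure D2:**
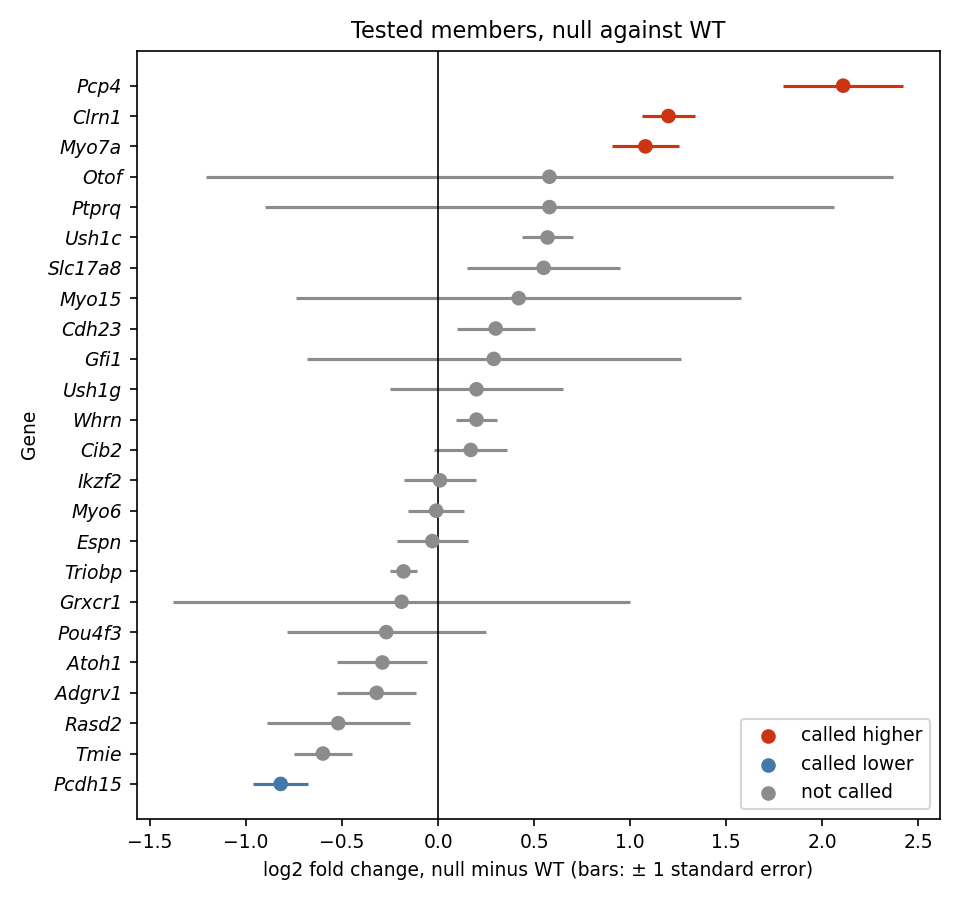
Log2 fold change of null against WT (horizontal axis) for the 24 tested members, with bars of 1 standard error on either side. The called members Pcp4, Clrn1 and Myo7a lie at 2.11, 1.20 and 1.08 and Pcdh15 at -0.82, and the widest bars belong to Otof, Ptprq, Grxcr1 and Myo15.

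Of the 6 hair cell transcription factors, 4 were tested and 0 were called in edgeR or DESeq2, with 0 at an unadjusted p under 0.05 in edgeR. Atoh1, which starts hair cell differentiation, measured 6.85, 5.18 and 7.12 CPM in WT, 6.83, 5.95 and 5.6 CPM in heterozygote and 4.46, 4.49 and 6.83 CPM in null libraries. It was present in every library and the genotypes overlapped (log2 fold change -0.29, standard error 0.234, edgeR adjusted p = 0.688). Ikzf2, known for its part in outer hair cell identity, was the most abundant factor in CPM, at 36.4 to 43.1 CPM in WT and 30.8 to 52.2 CPM in null libraries. Its null and WT values overlapped as well.

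Pou4f3, needed for hair cell survival, measured 8.52, 5.65 and 12.8 CPM in WT, 8.72, 2.49 and 4.97 CPM in heterozygotes and 3.43, 5.1 and 14 CPM in null embryos. Its highest values were those of WT 3 and Null 3, and its log2 fold change moved from -0.27 (edgeR adjusted p = 0.875) with all 6 libraries to -1.07 without Null 3, 0.09 without WT 3 and -0.73 without both. Gfi1, a repressor that acts after Atoh1 and Pou4f3, read 1.26, 0.353 and 2.71 CPM in WT, 1.57, 0.18 and 0.622 CPM in heterozygotes and 0.784, 0.291 and 4.32 CPM in null libraries. WT 3 and Null 3 were again the highest of their genotype, whereas Het 1 was the highest heterozygote, and the log2 fold change of 0.29 (standard error 0.973) became -1.46 without Null 3. Lhx3, a LIM homeobox factor of hair cells, had 0 counts in WT 1 and WT 2 and 2.68 CPM in WT 3, at most 0.0402 CPM in heterozygotes, and 0.0826, 0.323 and 3.39 CPM in Null 1, 2 and 3. Barhl1, a homeobox gene of differentiating hair cells, read 0.296, 0.196 and 2.78 CPM in WT, 0.18 to 0.482 CPM in heterozygotes and 0.248, 0.0323 and 4.65 CPM in null libraries. For both, 1 WT and 1 null library held nearly all of the counts of their genotype.

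Myo7a (ENSMUSG00000030761, chr7:98051060-98119524, minus strand, mm10) encodes myosin VIIa, a motor of the stereocilia that is mutated in Usher syndrome. It measured 14.5, 17.7 and 18.7 CPM in WT, 19.4, 19.4 and 19.5 CPM in heterozygote and 34.6, 29.2 and 43.9 CPM in null libraries. Every null library lay above every WT and heterozygote library, and Null 3 was the highest. The log2 fold change was 1.08 (standard error 0.175, edgeR adjusted p = 0.0257), and the call was kept without Null 3 (0.91, edgeR adjusted p = 0.0199). It was lost without WT 1, WT 2, WT 3 or Null 1 (largest adjusted p 0.135) and with a block for the replicate number (edgeR adjusted p = 0.057). Myo6, the motor at the base of the stereocilia, was the most abundant myosin at 101 to 127 CPM in WT, 84.7 to 102 CPM in heterozygotes and 96.8 to 139 CPM in null embryos, with a log2 fold change of -0.01 (standard error 0.146). Myo15, the motor that carries the stereocilia elongation complex, with the scaffold whirlin and Eps8, to the tips, read 2.15, 2.24 and 17.2 CPM in WT, 2.77, 2.49 and 2.3 CPM in heterozygotes and 1.69, 2.2 and 25.4 CPM in null libraries. It was steady in 7 libraries and higher in WT 3 and Null 3, with a log2 fold change of 0.42 (standard error 1.16) that became -1.89 without Null 3, 2.15 without WT 3 and -0.17 without both. Myo3a lay below the floor in all 9 libraries, at 0 to 0.0413 CPM.

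All 7 Usher cadherin, link and scaffold genes passed the filter and lay over the floor in every library. Clrn1 (ENSMUSG00000043850, chr3:58844028-58885340, minus strand) encodes clarin 1, a membrane protein of hair cells mutated in Usher syndrome. It measured 9.93, 9.18 and 9.3 CPM in WT, 13.4, 17.2 and 14.6 CPM in heterozygote and 25.3, 20.7 and 19.5 CPM in null libraries. The 3 genotypes did not overlap, with heterozygotes between WT and null embryos. Null exceeded WT by 1.20 on the log2 scale (standard error 0.137, edgeR adjusted p = 0.00662), whereas heterozygotes exceeded WT by 0.67, short of the threshold (standard error 0.117, edgeR adjusted p = 0.0588). Clrn1 was not raised in WT 3 or Null 3, and its call was kept without Null 3 (edgeR adjusted p = 0.00452), without both (0.00563) and with the replicate block (0.0349). Leaving out WT 2 ended it (edgeR adjusted p = 0.0583).

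Pcdh15 (ENSMUSG00000052613, chr10:73099342-74649737, plus strand) encodes the lower filament of the tip link. It measured 59, 52.5 and 58.6 CPM in WT, 58, 51.4 and 52 CPM in heterozygotes and 35.5, 25.3 and 36 CPM in null embryos. Every null library lay below every other library. Null against WT gave -0.82 on the log2 scale (standard error 0.144, edgeR adjusted p = 0.0368). It was called without Null 2, without Null 3 and without both WT 3 and Null 3 (edgeR adjusted p = 0.0213, 0.024 and 0.0299), but not without WT 1, WT 2, WT 3 or Null 1 (largest adjusted p 0.18). Cdh23, the upper partner in the tip link, had 68.6 to 95.3 CPM in WT and 72.5 to 128 CPM in null libraries, which overlapped (log2 fold change 0.30, standard error 0.204, edgeR adjusted p = 0.622). Whether the changes of the tip link partners differ from each other was not tested.

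Ush1c encodes harmonin, the scaffold that anchors the upper end of the tip link. It measured 242, 198 and 283 CPM in WT, 337, 315 and 274 CPM in heterozygotes and 392, 360 and 328 CPM in null libraries. All null libraries exceeded all WT libraries, but the log2 fold change of 0.57 (standard error 0.135) did not pass in edgeR (adjusted p = 0.0999). It passed in DESeq2 (adjusted p = 0.00125), in edgeR with no filter on low counts (0.016), with all 9 libraries in the fit (0.037) and without both WT 3 and Null 3 (0.0181), and its adjusted p was 0.061 to 0.341 with a single library left out and 0.205 with the replicate block. The ankle link gene Adgrv1, the scaffold Whrn and the scaffold Ush1g had overlapping null and WT values, with log2 fold changes of -0.32, 0.20 and 0.20 and edgeR adjusted p-values of 0.59, 0.498 and 0.894. Ush1g was the least abundant of the group, at 0.296 to 0.829 CPM over all libraries.

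**Figure D3:**
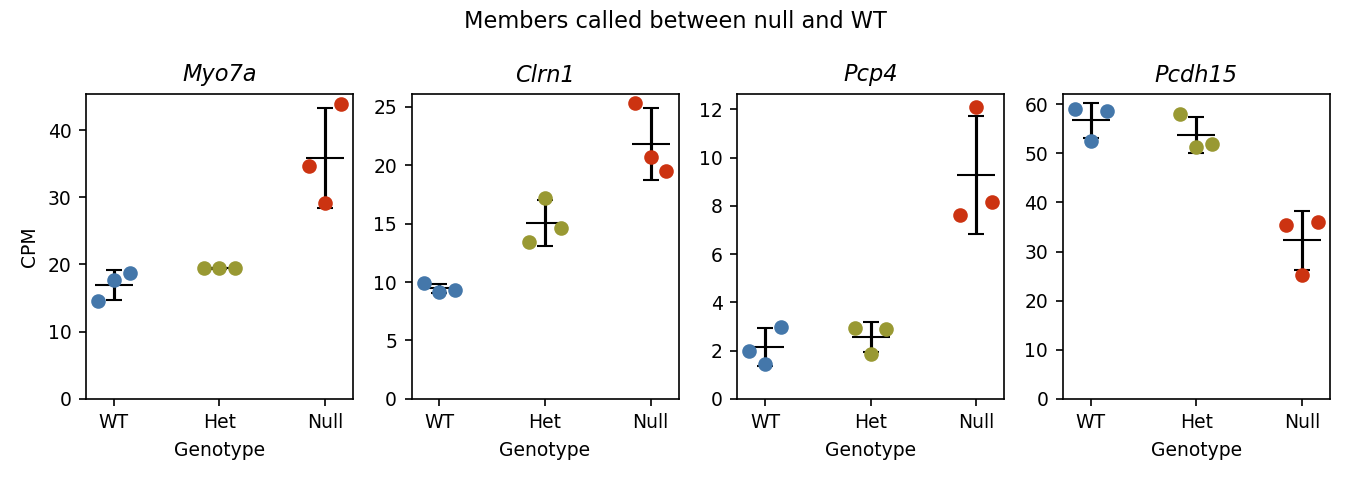
CPM of the 4 members called between null and WT (vertical axes, each from 0), with a point for each library, a horizontal line at the mean and bars of 1 SD (n = 3). Null libraries lie above all others for Myo7a, Clrn1 and Pcp4 and below all others for Pcdh15, and for Clrn1 the heterozygotes lie between.

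The stretches before the start sites of these called genes are shown for the regulatory sequence of the members the genotype comparison turns on, with that of Myo15 for the members raised in WT 3 and Null 3. They come from RefSeq on GRCm38.p6 and leave out bases that any annotated exon of the gene covers. RefSeq windows were matched for 29 of the 36 members (38 start sites). E-boxes are short motifs to which basic helix-loop-helix factors such as Atoh1 can bind. The first form searched was CAGCTG, which reads alike on both strands. The second form was CAGATG, which on the opposite strand reads as CATCTG. Both strands of the 250 bases before each start were searched, and these strings are distinct, so no position counts for both. At least 1 of them occurred in 12 of the 38 member windows (31.6%) and in 25.5% of 32851 windows of all genes (13% for the first form and 14.4% for the second). Capitals mark such matches, which describe letters and not binding. The sequences run 5′ to 3′ on the strand of the gene. They are Myo7a at chr7:98119525-98119743 (minus strand), Clrn1 at chr3:58885341-58885462 (minus strand), Pcp4 at chr16:96467356-96467605 (plus strand), Pcdh15 at chr10:73821617-73821866 (plus strand) and Myo15 at chr11:60469089-60469338 (plus strand). The RefSeq start used for Pcdh15, at position 73821867, lies inside the GENCODE span of the gene, which begins upstream at 73099342, and the window before that edge is not shown.
Myo7a: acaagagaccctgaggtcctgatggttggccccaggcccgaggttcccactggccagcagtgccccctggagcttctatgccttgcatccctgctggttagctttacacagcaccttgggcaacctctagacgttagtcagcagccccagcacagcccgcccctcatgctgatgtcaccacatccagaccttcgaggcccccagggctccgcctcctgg
Clrn1: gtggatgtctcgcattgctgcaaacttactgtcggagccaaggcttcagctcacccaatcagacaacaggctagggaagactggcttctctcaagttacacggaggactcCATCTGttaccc
Pcp4: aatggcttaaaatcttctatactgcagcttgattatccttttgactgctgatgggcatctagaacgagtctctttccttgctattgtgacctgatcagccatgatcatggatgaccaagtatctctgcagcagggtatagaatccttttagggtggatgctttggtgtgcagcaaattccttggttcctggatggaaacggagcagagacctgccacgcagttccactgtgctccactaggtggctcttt
Pcdh15: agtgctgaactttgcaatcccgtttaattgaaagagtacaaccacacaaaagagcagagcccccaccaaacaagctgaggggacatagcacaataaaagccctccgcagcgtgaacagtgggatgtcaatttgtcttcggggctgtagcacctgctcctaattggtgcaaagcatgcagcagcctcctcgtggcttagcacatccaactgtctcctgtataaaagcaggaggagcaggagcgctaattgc
Myo15: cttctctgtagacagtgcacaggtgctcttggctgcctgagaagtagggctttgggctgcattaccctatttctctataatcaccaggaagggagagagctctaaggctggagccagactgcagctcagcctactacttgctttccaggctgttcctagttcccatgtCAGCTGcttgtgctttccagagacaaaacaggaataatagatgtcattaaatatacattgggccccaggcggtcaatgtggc
The Clrn1 stretch holds a match that begins at -140 and the Myo15 stretch a match at -82, counted from the RefSeq start site. The stretches of Myo7a, Pcp4 and Pcdh15 hold none, which says only that these letters are not in these windows. Myo7a has a second RefSeq start site, and that window held no match either.

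Of the 5 genes of the mechanotransduction complex, 2 passed the filter and 0 were called in edgeR. Tmie, a subunit that links the channel to the tip link, measured 10.9, 10.6 and 11.8 CPM in WT, 12.2, 8.51 and 11.4 CPM in heterozygotes and 6.36, 7.85 and 7.88 CPM in null embryos. The null libraries were below all others. The log2 fold change of -0.60 (standard error 0.152) gave an adjusted p of 0.13 in edgeR and 0.0361 in DESeq2. Its exons share 244 bases with those of Als2cl on the opposite strand, whose own log2 value was -0.46 (edgeR adjusted p = 0.0703), and the strand setting of the counting is not given in the sources used here, so reads of the shared bases may belong to either. Cib2, a calcium binding partner of the channel, read 9.61 to 12.2 CPM in WT and 9.5 to 14.6 CPM in null libraries and was not called (log2 fold change 0.17, edgeR adjusted p = 0.776).

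The pore genes Tmc1 and Tmc2 were low. Tmc1 read 0.185, 0.314 and 0.339 CPM in WT, 0 to 0.505 CPM in heterozygotes and 0.495, 0.226 and 1.55 CPM in null libraries, and Tmc2 never exceeded 0.281 CPM. Tmc1 passed the filter in null against heterozygote libraries, where its log2 fold change of 1.56 had a standard error of 0.977 (edgeR adjusted p = 0.566). Lhfpl5, the tetraspan subunit of the complex, read 0.259, 0.0392 and 1.63 CPM in WT, 0.522, 0.108 and 0 CPM in heterozygotes and 0, 0.129 and 2.31 CPM in null embryos. WT 3 and Null 3 were again highest, and Lhfpl5 was at or under the floor in 4 of the other 7 libraries.

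Of the 7 genes of the bundle's actin core and surface, 4 passed the filter and 0 were called in edgeR or DESeq2, with 1 lower at an unadjusted p under 0.05. Triobp and Espn were abundant, and Ptprq, Loxhd1, Strc and Xirp2 were scarce outside WT 3 and Null 3. Triobp, which bundles actin in the rootlets of stereocilia and is also expressed outside hair cells, measured 151, 143 and 135 CPM in WT, 155, 142 and 142 CPM in heterozygotes and 129, 122 and 128 CPM in null embryos. The null libraries lay below the rest, yet the log2 fold change was -0.18 (standard error 0.0718, edgeR adjusted p = 0.355). Espn, the actin bundler espin, read 20.2 to 25.2 CPM in WT, 15.3 to 18.8 CPM in heterozygotes and 18.6 to 28.8 CPM in null libraries (log2 fold change -0.03, edgeR adjusted p = 0.957).

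Ptprq, a phosphatase of the shaft connectors, measured 0.593, 0.0785 and 5.16 CPM in WT, 0.241, 0.252 and 0.293 CPM in heterozygotes and 0.33, 0.258 and 8.3 CPM in null embryos. Loxhd1, a stereocilia membrane protein, read 0.0741, 0.235 and 5.94 CPM in WT, 0.803, 0 and 0.0731 CPM in heterozygotes and 0.0413, 0.0323 and 8.88 CPM in null libraries. In both genes WT 3 and Null 3 exceeded the other 7 libraries, and no split by genotype was seen. Strc, the stereocilin of the links between stereocilia, had 0 counts in WT 1 and WT 2 and 0.984 CPM in WT 3, and 0.0413, 0 and 2.68 CPM in Null 1, 2 and 3. Xirp2, an actin binding protein of the bundle, read 0.0741, 0 and 1.32 CPM in WT and 0.0826, 0.0323 and 3.27 CPM in null embryos. Grxcr1, a glutaredoxin domain protein of stereocilia, differed among WT libraries less, at 0.815, 0.314 and 1.15 CPM, and read 0, 0.0969 and 1.97 CPM in null libraries. Its log2 fold change went from -0.19 (standard error 1.19) to -3.73 (edgeR adjusted p = 0.103) without Null 3.

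Among genes of synapse and calcium handling, Pcp4 (ENSMUSG00000090223, chr16:96467606-96525793, plus strand), a small regulator of calmodulin, was the 1 member called between null and WT. It measured 2, 1.45 and 2.99 CPM in WT, 2.93, 1.84 and 2.89 CPM in heterozygote and 7.6, 12.1 and 8.17 CPM in null libraries. No null library overlapped with WT or heterozygotes, and Null 2 was the highest. Null exceeded WT by 2.11 on the log2 scale (standard error 0.313, edgeR adjusted p = 0.0187), by 2.43 without WT 3 (edgeR adjusted p = 0.0279), 2.19 without Null 3 (0.0149) and 2.51 without both (0.00361). The call was lost without WT 1, WT 2 or Null 2 (largest adjusted p 0.117) and with the replicate block (0.0821). Pcp4 is also made outside hair cells, and its cell type in these ducts was not measured.

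Otof, the calcium sensor otoferlin of the ribbon synapse, measured 0.593, 0 and 14 CPM in WT, 0.884, 0.216 and 0.146 CPM in heterozygotes and 0.33, 0.517 and 21.2 CPM in null embryos. WT 3 held 23.6 times the highest other WT library and Null 3 held 41.1 times the highest other null library. With all 6 libraries the log2 fold change was 0.58 with a standard error of 1.79 (edgeR adjusted p = 0.924), and it was -3.50 without Null 3, 4.59 without WT 3 and 0.50 without both. Slc17a8, the vesicular glutamate transporter of inner hair cells, read 0.588 to 1.41 CPM in WT and 1.1 to 1.97 CPM in null libraries and was not called (log2 fold change 0.55, edgeR adjusted p = 0.641). Rasd2, a small GTP-binding protein, read 11, 8.51 and 16.3 CPM in WT, 12.6, 5.7 and 6.33 CPM in heterozygotes and 5.33, 6.49 and 13.2 CPM in null embryos, with WT 3 and Null 3 again the highest of their genotype.

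The synaptic calcium sensor Cabp2 and the acetylcholine receptor subunits Chrna9 and Chrna10, which receive efferent input, did not pass the filter. Chrna9 had 0 counts in 6 libraries, 0.0402 CPM in Het 1, 0.305 CPM in WT 3 and 0.796 CPM in Null 3. Cabp2 exceeded the floor in WT 3 (0.271 CPM) and Null 3 (0.629 CPM) alone. Chrna10 read 0.712 CPM in Null 3 and at most 0.237 CPM elsewhere, but 39.003% of its exon bases are shared with Art1 on the opposite strand. Exon bases shared with opposite-strand genes were also present in Gfi1, Lhx3, Ikzf2, Ush1c, Cib2, Strc, Triobp and Xirp2, between 10 and 227 bases each.

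The members were then read for whether a single null library carried their signal. The 9 genes high in WT 3 and Null 3 were picked for that excess, so the size of it in them is a description. In these genes the level of Null 3 was 1.27 (Lhx3) to 2.73 (Strc) times that of WT 3. Among the other 27 members, Null 3 also exceeded the higher of the other null libraries, or their mean floor where both lay below it, by 17.8-fold for Grxcr1, 7.18-fold for Chrna9, 5.67-fold for Cabp2, 5.5-fold for Gfi1, 3.15-fold for Chrna10 and 3.13-fold for Tmc1, while WT 3, set against the other WT libraries in the same way, was higher by 1.08-fold (Tmc1) to 2.66-fold (Chrna9) in these genes. The sum of the 27 is set mostly by abundant genes such as Ush1c and Triobp and does not show this. For Pcp4, Ikzf2, Ush1g, Clrn1, Ush1c, Cib2, Triobp and Whrn, Null 3 lay below the higher of the other null libraries (0.673-fold for Pcp4 to 0.997-fold for Whrn). Myo3a had 0 counts in Null 3. The share of all genes that stood as high in Null 3 alone was not determined, so the list above is a description. The called genes Myo7a, Clrn1, Pcp4 and Pcdh15 did not rest on Null 3, since edgeR called each of them without it and without both libraries. The median log2 fold change of tested members, which was negative without Null 3, was 0.30 without WT 3 and 0.01 without both.

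**Figure D4:**
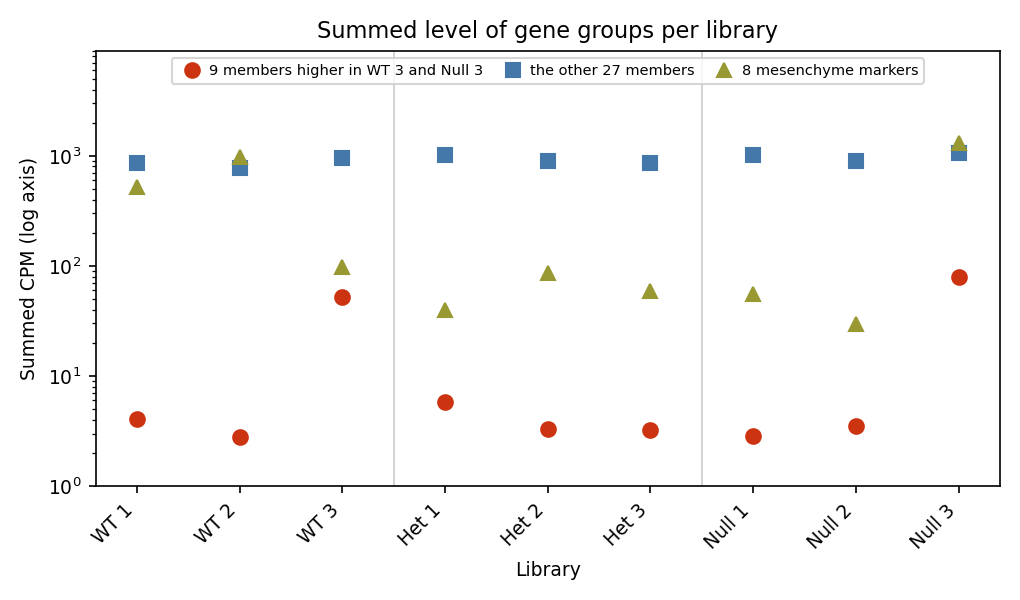
Summed CPM (log axis) in each library of the 9 members that were at least 3-fold higher in WT 3 and Null 3 (circles), of the other 27 members (squares) and of 8 mesenchyme markers (triangles). The circles reach 51.7 CPM in WT 3 and 80.1 CPM in Null 3 and at most 5.82 CPM elsewhere, the squares lie between 769 and 1051.9 CPM, and the triangles are high in WT 1, WT 2 and Null 3.

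**Figure D5:**
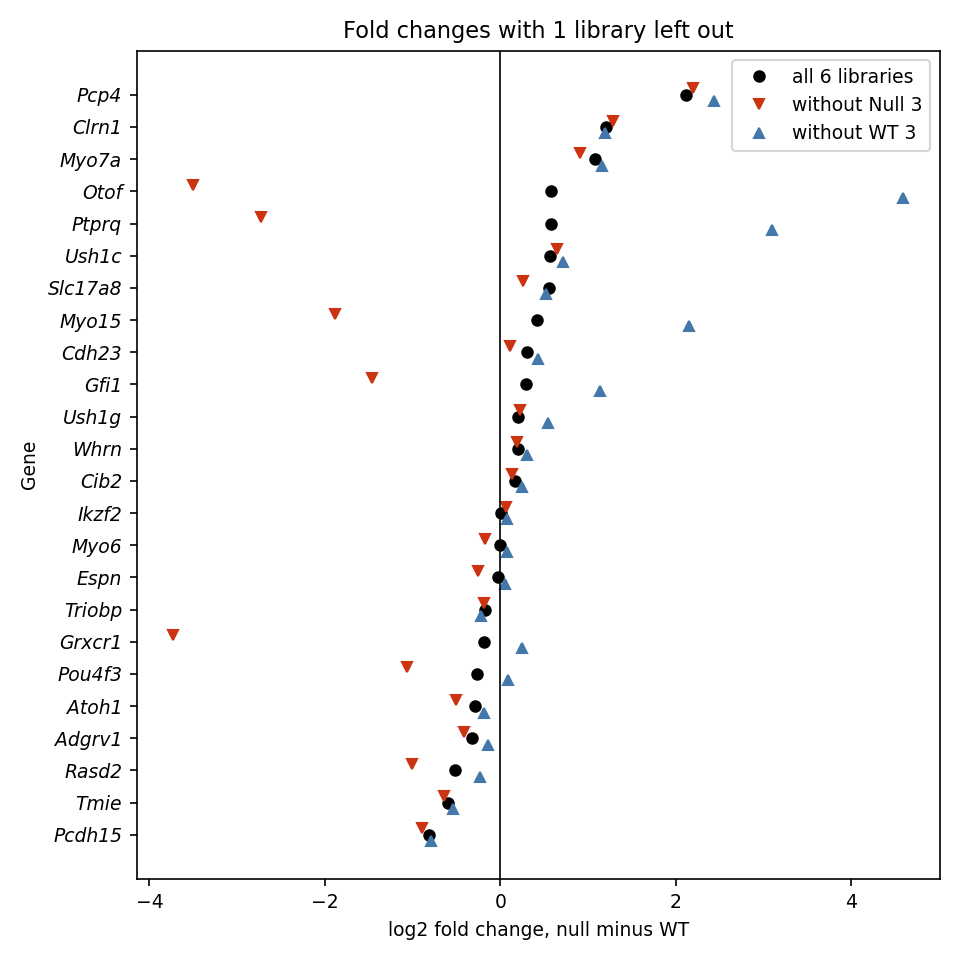
Log2 fold change of null against WT (horizontal axis) for the 24 tested members with all 6 libraries (circles), without Null 3 (downward triangles) and without WT 3 (upward triangles). Otof, Ptprq, Myo15 and Gfi1 swing to both sides of 0, at -3.50 and 4.59 for Otof, while Pcp4, Clrn1, Myo7a and Pcdh15 stay on their side.

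In heterozygotes, which keep a single intact copy of Prdm16, 0 of the 23 tested members were called higher against WT and 0 lower in edgeR (backgrounds 0.0521% and 0.0984% of 17269 genes). At an unadjusted p under 0.05 there were 3 higher and 3 lower, beside 2266 of all 17269 genes in both directions. DESeq2 called 1 member higher, Clrn1, and 0 lower (backgrounds 0.253% and 1.42%). With no filter on low counts, which puts all 36 members in the fit, edgeR called 1 higher, again Clrn1, and 9 lower (backgrounds 0.341% and 1.8%). The 9 were Barhl1, Lhx3, Loxhd1, Myo15, Otof, Pou4f3, Ptprq, Rasd2 and Xirp2, each of which was highest in WT 3 among the WT libraries. The median log2 fold change of the 23 was -0.06. Against heterozygotes, 1 of 23 members was called higher in null embryos (4.35%, background 0.293%), which was Pcp4 (log2 fold change 1.87, standard error 0.265, edgeR adjusted p = 0.0282), and 0 were called lower (background 0.322%). At an unadjusted p under 0.05 there were 4 higher and 3 lower, beside 1944 of all 17067 genes. DESeq2 called 3 members higher (Clrn1, Myo7a and Pcp4; background 1.11%) and 1 lower (Pcdh15; background 0.922%). With no filter, edgeR called 6 higher (Lhx3, Myo7a, Otof, Pcp4, Ptprq and Xirp2; background 0.711%) and 1 lower, Pcdh15 (background 0.435%). The Pcp4 call against heterozygotes was lost without Het 1, Het 2 or Het 3 (edgeR adjusted p = 0.132, 0.13 and 0.164) and with the replicate block (0.0926). Myo7a (0.89, edgeR adjusted p = 0.0503) and Pcdh15 (-0.74, edgeR adjusted p = 0.0845) missed the threshold. Both comparisons share libraries with that of null against WT, so their values are given side by side and not as separate support.

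Per length of exon, the order of levels in WT placed Ush1c first at 62.6 ± 11.1 RPKM (CPM per kilobase of exon, SD, n = 3), followed by Triobp at 11.6 ± 0.681, Myo6 at 9.45 ± 1.1, Cib2 at 7.7 ± 0.911, Whrn at 5.92 ± 0.716 and Cdh23 at 4.85 ± 0.788 RPKM. Myo6 and Cib2 lay within about the sum of their SDs, and so did Whrn and Cdh23. The called members were lower on this scale, with 2.45 ± 0.105 RPKM for Clrn1, 2.39 ± 0.153 for Pcdh15, 2.09 ± 0.758 for Pcp4 and 1.98 ± 0.26 for Myo7a, and these 4 did not differ beyond their combined spread, apart from Clrn1 against Myo7a. Myo3a was last at 0.00298 RPKM. RPKM uses the union of annotated exons, so genes with long alternative exons read low.

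A wider list of 59 other hair cell genes was set beside the members. Of its 55 genes that reached 10 counts, WT 3 and Null 3 were each the highest of their genotype for 25 (45.5%, against 70.6% of members). They were each at least 3-fold higher for 8 (14.5%, against 26.5% of members). The shares of all genes were 9.75% and 0.266%. Of 50 tested, 3 were called higher in null against WT and 2 lower (6% and 4%, against 0.92% and 0.786% of all genes tested), and the median log2 fold change was 0.04, beside 0.01 over all genes. The paper already lists Rims2, Smpx and Calb1 among its most changed genes from the same libraries. This list was chosen with such results known, so its shares are descriptions. Whether the calls of this list hold with a library left out was not examined. Eps8, which caps actin at stereocilia tips, rose from 42.5, 44.9 and 40.4 CPM in WT to 70.6, 66.8 and 58.3 CPM in null embryos (log2 fold change 0.61, edgeR adjusted p = 0.0251). Rims2, of the presynaptic active zone, and Smpx, a small muscle and hair cell protein, rose by 1.06 and 1.42 on the log2 scale (edgeR adjusted p = 0.0177 and 0.0248). The actin bundler Pls1 fell from 131, 135 and 131 CPM to 101, 89.4 and 82.2 CPM (log2 fold change -0.55, edgeR adjusted p = 0.0247). Calb1, a calcium buffer, fell from 24.2, 13.4 and 12.1 CPM to 0.867, 0.743 and 0.629 CPM, -4.46 on the log2 scale with a standard error of 0.33 (edgeR adjusted p = 0.00145). In all 5 genes the null libraries lay apart from the WT libraries, but the 5 were picked by this same comparison. Uncalled genes of the list, such as Gnai3 and Tprn, lay apart too.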

How the data were processed

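Cochlear ducts of 9 embryos were measured by bulk RNA-seq. Per the paper, the authors prepared TruSeq mRNA libraries, aligned single reads to mm10 with STAR and used Cufflinks to assemble and annotate. The submitters' processing notes name cutadapt 1.13, STAR and HTSeq 0.6.1p1 but not Cufflinks, so the tool behind the counts is taken from the notes as HTSeq. The strand setting of the counting and annotation release are not given in the sources used here. The deposited values are raw counts per Ensembl gene, without normalization, and 54165 of 54232 identifiers matched GENCODE vM21 for names and mm10 positions. Mitochondrial genes are at 0 in each library. Libraries were grouped by labelled genotype, and libraries of the same genotype differed by more than counting noise (lowest chi-square per gene 5.69).

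From the counts, R 4.3.3 with edgeR 4.0.16 (TMM, filterByExpr with a minimum count of 10, glmQLFit and glmQLFTest) compared the 6 libraries of each pair of genotypes, with Benjamini-Hochberg adjustment over all tested genes. The procedure was tested on simulated data. CPM used TMM library sizes of all 9 libraries, and values are mean ± SD over 3 embryos where so given. The alternatives were DESeq2 1.42.0, RLE factors, no filter on low counts, all 9 libraries in the fit, a replicate block and leaving out each library, and, chosen after seeing the data, leaving out WT 3 and Null 3 together. All 36 members are named by rule, with Prdm16, other hair cell genes called in null against WT, and markers set beside a member. The genes named in the closing observations were chosen after their values were seen. The members and lists were chosen with earlier results of these data known. The 3 embryos of each genotype, stated to be littermates, set the precision.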

Additional observations from a re-analysis of the deposited data

How the results depend on the processing

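Clrn1, Myo7a, Pcp4 and Pcdh15 kept their direction in every setting tried for null against WT, but at 3 libraries a genotype most calls were close to the threshold. With the replicate block 1 member was called higher (Clrn1) and 1 lower (Pcdh15), and DESeq2 called 2 lower (Pcdh15 and Tmie). With a library left out the calls ranged from 0 to 3 higher, with 0 without WT 2 and 1 without WT 1, and from 0 to 1 lower, with 0 without WT 1, WT 2, WT 3 or Null 1. For heterozygotes against WT, Clrn1 was the 1 member called higher with no filter, with the replicate block, in DESeq2 and without WT 3 (0 to 1 over the libraries left out), and no filter called 9 lower, all of them highest in WT 3 among the WT libraries. For null against heterozygotes the higher calls were 2 with RLE factors, 6 with no filter, 2 with all 9 libraries, 0 with the replicate block, 3 in DESeq2, 2 without Null 3 and 0 to 2 over the libraries left out. They were 0 without Het 1, Het 2 or Het 3. The lower calls were 1 with no filter, with all 9 libraries and in DESeq2, and 0 to 1 over the libraries left out. The cause of these moves was not tested. Same-numbered libraries correlated in their deviations from the genotype means by 0.005, -0.142 and -0.284 in null against WT, 0.202, 0.112 and -0.058 in heterozygotes against WT and 0.139, -0.117 and 0.083 in null against heterozygotes. No comparison had all 3 above 0.1, so the numbers were not taken to pair embryos.

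The median log2 fold change of tested members ranged from -0.22 to 0.58 with a library left out. The summed level of members without Ush1c and Triobp was 501 CPM in WT, 472 CPM in heterozygotes and 535 CPM in null embryos on average. Of 298 comparisons of a member's fold change with an alternative, 250 kept direction and side of the threshold, 5 passed it newly, 18 lost it and 25 changed sign, the last of these in members that were not called. The replicate block gave -0.02 for Ikzf2 and -0.04 for Gfi1, and leaving out WT 3 and Null 3 together gave -0.63 for Gfi1 and -0.17 for Myo15. With a library left out, the log2 fold change ranged from -1.07 to 0.09 for Pou4f3, -0.22 to 0.18 for Ikzf2, -0.26 to 0.09 for Espn, -1.46 to 1.13 for Gfi1 and -0.18 to 0.10 for Myo6. It ranged from -2.73 to 3.10 for Ptprq, -1.89 to 2.15 for Myo15, -0.09 to 0.54 for Ush1g, -3.50 to 4.59 for Otof and -3.73 to 0.39 for Grxcr1.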

Other observations

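Outside the member list, other genes shared the excess in WT 3 and Null 3. Cfap65, which builds motile cilia, measured 0, 0.0785 and 2.31 CPM in WT 1, 2 and 3, 0 to 0.18 CPM in heterozygotes and 0.0826, 0.0323 and 4.99 CPM in Null 1, 2 and 3. Dnah5, an axonemal dynein of motile cilia, read 1.63 CPM in WT 3 and 2.85 CPM in Null 3 and at most 0.402 CPM in the other 7 libraries. The hair cell gene Kncn read 0.679 and 1.34 CPM in WT 3 and Null 3 and at most 0.0646 CPM elsewhere. The transcription regulators Tbx19 (0.746 and 3.48 CPM, at most 0.0392 CPM elsewhere) and Skor1 (1.87 and 3.73 CPM, at most 0.258 CPM elsewhere) behaved alike, as did Rph3a (1.19 and 2.77 CPM, at most 0.161 CPM elsewhere). These genes were chosen after their values were seen, and no cause was tested.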
